A study of Rattus norvegicus with 18 samples.

Results

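The mature miRNAs of the miR-143/miR-145 cluster, rno-miR-143-3p, rno-miR-143-5p, rno-miR-145-5p and rno-miR-145-3p (written below without the species prefix), were described across 18 small RNA libraries from rat dorsal root ganglia. They were taken by name, as both arms of each of these precursors, and are 4 of the 753 mature miRNAs listed in the count table. All 4 were detected, by a rule that asked for above 10 counts in 6 libraries or more, as were 373 miRNAs in all. The cluster was singled out from earlier results of the same data. Those results were the changes of miR-145-5p between injured and naive rats and between neurotrophin-3 and GFP treated rats, and the joint height of the 4 arms in 1 naive library. Values that repeat those observations are therefore given as a description, without a p-value, and where arms called are counted in those comparisons nothing is read from the count.

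The study profiled miRNAs in the ganglia of adult Lister hooded rats after a lesion of the corticospinal tracts and delivery of a neurotrophin to forelimb muscle. The naive group (n = 6) was unoperated and untreated. The bPYX+GFP group (n = 6) received a bilateral pyramidotomy, which cuts the corticospinal tract of both sides in the medulla, and then an adeno-associated viral vector encoding green fluorescent protein (GFP) in forelimb flexor muscles. The bPYX+NT3 group (n = 6) received the same lesion and a vector encoding neurotrophin-3, a growth factor for proprioceptive sensory neurons, and both injured groups were taken 10 weeks after injury. Expression in both vectors was driven by the CMV promoter, which is active in many cell types. The lesion, the operation and the vector injection all separated bPYX+GFP from naive rats and cannot be told apart in that comparison. The ganglia, from segments C6 to C8, hold sensory neurons, satellite glia, Schwann cells, blood vessels and connective tissue. Each library came from the pooled ganglia of 1 rat, so the replicates were separate animals.

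miR-143 and miR-145 are processed from neighbouring hairpins of the same long noncoding transcript and are best known from smooth muscle of the vessel wall. There they are abundant in contractile cells, are induced by serum response factor with myocardin, and favour the contractile over the proliferative state. miR-145-5p represses Klf4 and Klf5 among other targets, and the cluster is often read in bulk tissue as a marker of vessel-associated mural cells. Each hairpin gives a 5p and a 3p arm. The usual guide strands are miR-143-3p and miR-145-5p, and the partner arms miR-143-5p and miR-145-3p are usually the scarcer ones.

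In the RefSeq annotation of the rat assembly GRCr8, Mir143 and Mir145 both lay within the long noncoding RNA gene Carmn, also named Mir143hg, with 0 other annotated genes between them. All 4 mature names were matched to RefSeq, and their sequences are shown because the arms differ in the seed, the part that pairs with targets. They are written 5′ to 3′, with the seed (bases 2 to 8) in capitals.
miR-143-3p: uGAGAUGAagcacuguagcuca
miR-143-5p: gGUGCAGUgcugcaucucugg
miR-145-5p: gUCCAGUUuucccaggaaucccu
miR-145-3p: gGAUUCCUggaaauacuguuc
The 4 seeds differed from each other, and 0 other mature miRNAs among the 693 RefSeq names carried any of them. The mature lengths were 22, 21, 23 and 21 bases in that order, so levels are compared between arms as counts with no correction for length.

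The libraries held 4699312 ± 662696 miRNA counts each (SD, n = 18), with a range of 3879788 to 6919863. Levels are given as CPM (counts per 1000000 miRNA counts) on library sizes scaled by edgeR's TMM method. miR-1-3p and miR-133a-3p, which define striated muscle, were listed at 0 in every library, and the sensory neuron miRNA miR-182 stood at 25160.1 ± 2534 CPM (SD, n = 18). The sensory neuron miRNA miR-183-5p and the glial miRNA miR-338-3p were also listed at 0 throughout, in a tissue that holds both cell types, so a listed 0 is not read as absence. HTSeq had set aside 28.0% to 35.1% of a library's entries for low mapping quality, and their part in these zeros was not tested.

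The 4 arms spanned a wide range of levels in ganglia. miR-143-3p was the 4th most abundant of the 373 miRNAs tested, with 49479 CPM over all libraries and between 3.97% and 6.52% of a library's miRNA counts. It rested on 175515 to 367576 counts per library. miR-145-5p ranked 57th and rested on 3604 to 9004 counts, miR-145-3p ranked 96th on 1527 to 3053 counts, and miR-143-5p ranked 164th on 303 to 777 counts. The scarcest arm was therefore the one with the least precise single value. In naive replicate 2, 697 counts of miR-143-5p made up 0.0169% of the library, with a 95% Wilson interval of 0.0157% to 0.0182%. The same interval for miR-145-5p in that library, on 9004 counts, was 0.214% to 0.223%, and these intervals cover counting error only. The spread between rats was wider than counting error for all 4 arms.

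**Figure D1:**
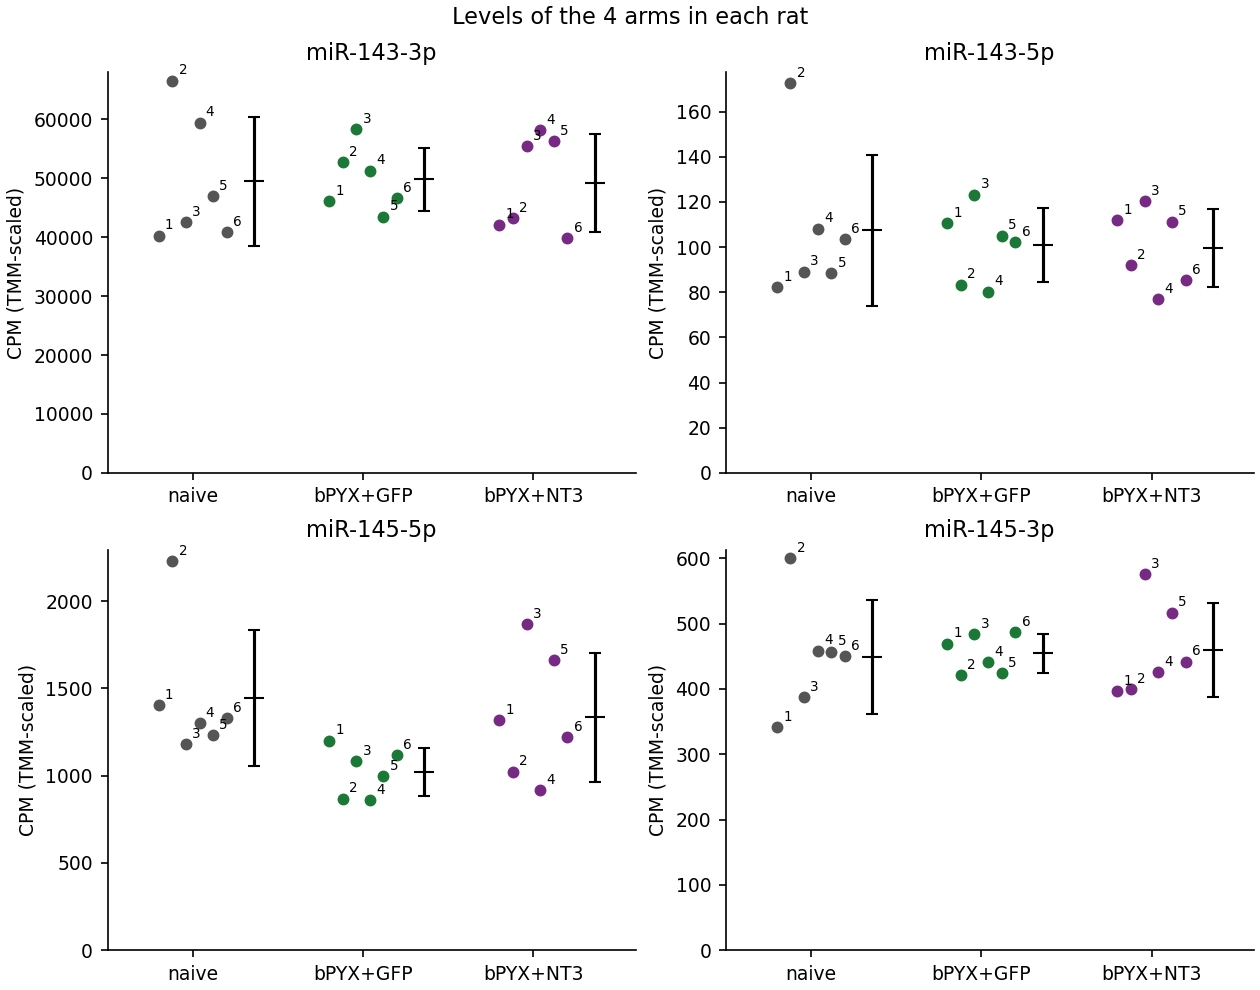
Level of each arm in CPM in each of the 18 libraries, by group, with 1 point per rat and the group mean. miR-145-5p is the arm whose bPYX+GFP points, 858 to 1201 CPM, lie mostly below the naive points, 1182 to 2228 CPM, while the other arms overlap widely.

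miR-145-5p, the guide strand of miR-145, had the lowest group mean in bPYX+GFP rats. In naive libraries its lowest, median and highest levels were 1182, 1316 and 2228 CPM (mean 1446 ± 391, SD, n = 6). In bPYX+GFP libraries they were 858, 1039 and 1201 CPM (1021 ± 139, n = 6). Of the 6 bPYX+GFP libraries, 5 lay below the lowest naive library and all 6 below the naive mean, with replicate 1 alone overlapping the naive range. In bPYX+NT3 libraries the levels were 917, 1269 and 1869 CPM (1335 ± 368, n = 6). Of these, 4 lay above the highest bPYX+GFP library and replicates 2 and 4, at 1023 and 917 CPM, lay within the bPYX+GFP range. Against naive, 2 of the bPYX+NT3 libraries lay below the lowest naive library.

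miR-145-3p, the partner strand of the same hairpin, had almost equal group means. Its lowest, median and highest levels were 342, 454 and 601 CPM in naive libraries (449 ± 87.7, n = 6). They were 422, 455 and 487 CPM in bPYX+GFP libraries (455 ± 29.5, n = 6) and 396, 434 and 575 CPM in bPYX+NT3 libraries (459 ± 71.8, n = 6). The 3 groups overlapped, and the bPYX+GFP libraries were the tightest of them.

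miR-143-3p, the guide strand of miR-143, also had almost equal group means. Its levels were 40284, 44805 and 66584.5 CPM at the lowest, median and highest naive library (49464 ± 10993, n = 6). The bPYX+GFP libraries gave 43509.6, 48989.5 and 58316 CPM (49792 ± 5407, n = 6), and the bPYX+NT3 libraries gave 39804, 49332 and 58110.3 CPM (49180.2 ± 8291, n = 6). Its scarce partner miR-143-5p stood at 82.4, 96.4 and 172 CPM in naive libraries (107 ± 33.4), at 80.2, 104 and 123 CPM in bPYX+GFP libraries (101 ± 16.4) and at 77.1, 102 and 120 CPM in bPYX+NT3 libraries (99.7 ± 17.2, n = 6 each). The ranges of all 3 groups overlapped for both arms of miR-143. In bulk ganglia, fewer cells of a type and less RNA per cell cannot be told apart for any of the 4 arms.

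Fold changes were taken from edgeR's quasi-likelihood fit over all 373 tested miRNAs. In bPYX+GFP against naive rats the log2 fold change of miR-145-5p was -0.50 ± 0.14 (SE), and its partner miR-145-3p gave 0.017 ± 0.11. miR-143-3p gave 0.0096 ± 0.12 and miR-143-5p gave -0.090 ± 0.17. These values are a description, since miR-145-5p had been picked from this comparison. At an adjusted p under 0.05, 0 of the 4 arms were called, beside 2.41% of all tested miRNAs. At an unadjusted p under 0.05, 1 of 4 was called, miR-145-5p as lower, beside 21.2% of all tested miRNAs (10.5% as lower). DESeq2 called 1 of the 4 arms at an adjusted p, beside 6.17% of all tested miRNAs, and edgeR's likelihood ratio test called 1 beside 3.22%, in both cases miR-145-5p, whose change picked the cluster. Leaving out naive replicate 2 moved miR-145-5p to -0.34 and gave 1 call among the arms at an adjusted p, while the share called of all tested miRNAs went from 2.41% to 5.36%. Without that library miR-143-5p turned to 0.096, miR-143-3p gave 0.11 and miR-145-3p gave 0.12. The levels of 0 of the 4 arms separated the groups without overlap, beside 4.02% of all tested miRNAs.

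In bPYX+NT3 against bPYX+GFP rats the log2 fold change of miR-145-5p was 0.40 ± 0.16, again as a description. miR-145-3p gave 0.030 ± 0.10, miR-143-3p -0.0017 ± 0.11 and miR-143-5p -0.0036 ± 0.13. By edgeR's quasi-likelihood test 0 of the 4 arms were called at an adjusted p under 0.05, as were 0% of all tested miRNAs, and the likelihood ratio test and DESeq2 called 0 arms beside 0% as well. At an unadjusted p under 0.05, 1 of 4 was called, miR-145-5p as higher, beside 8.58% of all tested miRNAs (5.09% as higher). Without bPYX+NT3 replicate 3, miR-145-3p turned to -0.075 and miR-143-3p and miR-143-5p were at -0.069 and -0.098. The value of miR-145-5p was then 0.25, and the unadjusted count was 0 without any 1 of bPYX+GFP replicates 2 or 4 or bPYX+NT3 replicates 3 or 5. In those fits 30, 29, 25 and 24 of all 373 tested miRNAs were called, in the order given, against 32 with every library in. The groups overlapped for each arm, beside 0% of tested miRNAs without overlap.

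The contrast between bPYX+NT3 and naive rats shares its libraries with both comparisons that picked the cluster, naive replicate 2 among them, so its values are a description too. edgeR's quasi-likelihood test called 0 of the 4 arms at an adjusted p under 0.05, beside 0% of all tested miRNAs, and 0 at an unadjusted p under 0.05, beside 13.7%. DESeq2 and the likelihood ratio test called 0 of the 4 arms at an adjusted p, each beside 0.268%. miR-145-5p gave a log2 fold change of -0.12 ± 0.18 (SE), with a 95% interval of -0.51 to 0.27. For miR-145-3p the change was 0.032 ± 0.13 (interval -0.24 to 0.31). For miR-143-3p it was -0.0083 ± 0.14 (interval -0.31 to 0.29), and for miR-143-5p -0.11 ± 0.17 (interval -0.47 to 0.26). The intervals leave room for differences of either sign in all 4 arms, and without naive replicate 2 the values of miR-145-5p and miR-143-5p were 0.050 and 0.079. No arm separated these groups without overlap, beside 1.34% of all tested miRNAs.

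The balance between the arms of a hairpin was next taken from raw counts within each library, where the library size cancels. It is a ratio of counts and not of molecules. The ratio of miR-145-5p to miR-145-3p was 3.23 ± 0.55 in naive libraries (SD, n = 6; 2.69 to 4.10), 2.24 ± 0.22 in bPYX+GFP libraries (1.94 to 2.56) and 2.88 ± 0.47 in bPYX+NT3 libraries (2.15 to 3.32). miR-145-5p thus made up 76.0 ± 2.92%, 69.0 ± 2.09% and 73.9 ± 3.36% of the counts of both arms. Every bPYX+GFP library lay below every naive library. That separation was seen in 5.26% of the 114 hairpins with both arms tested, 6 in number, which were miR-145, miR-221, miR-30a, miR-30e, miR-3559 and miR-361. The difference in log2 ratio was -0.51, against a median size of 0.19 over the 114 hairpins, and it ranked 12th by size. The share over hairpins and the differences in log2 ratio, here and below, were taken on TMM-scaled log2 CPM with a prior count of 2. They are not on raw counts. Since the ratio holds the level of miR-145-5p that picked the cluster, it is a description.

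The bPYX+NT3 ratios ran between those of the other groups and overlapped both. Against bPYX+GFP the difference in log2 ratio was 0.35, ranking 16th of the 114 hairpins, 0% of which separated these groups. Against naive the difference in log2 ratio was -0.16, ranking 68th of the 114 hairpins by size, whose median size was 0.20. There too, 0% of the hairpins separated the groups.

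**Figure D2:**
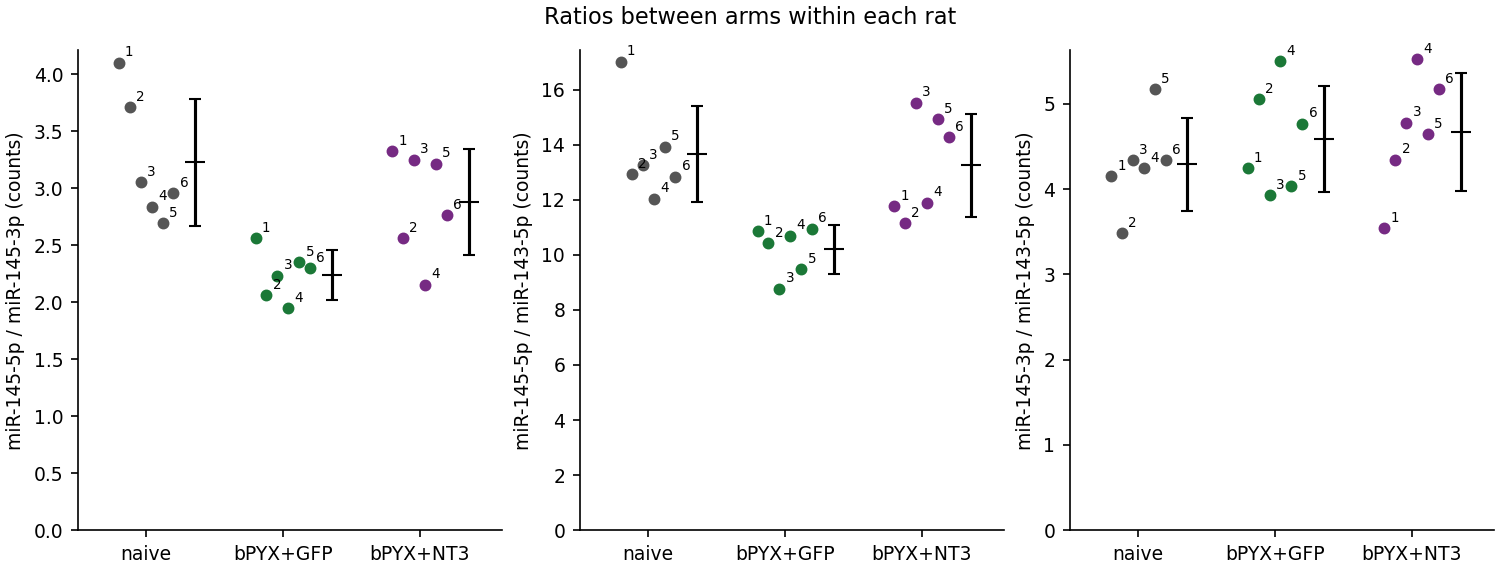
Ratios of counts between arms in each library, by group, with 1 point per rat and the group mean. The miR-145-5p to miR-145-3p ratio of bPYX+GFP libraries, 1.94 to 2.56, lies below that of all naive libraries, 2.69 to 4.10.

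The arms of miR-143 were far more unequal. miR-143-3p made up 99.8% of the counts of both arms on average in each group, with a range over libraries of 99.7% to 99.9%. Its ratio to miR-143-5p was 471 ± 68.4 in naive libraries (SD, n = 6). The bPYX+GFP libraries gave 506 ± 104 and the bPYX+NT3 libraries 506 ± 129, with overlapping ranges.

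Across hairpins, miR-145-5p was set against the arms of miR-143. Its ratio to miR-143-5p was 13.7 ± 1.75 in naive libraries (SD, n = 6; 12.0 to 17.0). The bPYX+GFP libraries gave 10.2 ± 0.87 (8.77 to 11.0) and the bPYX+NT3 libraries 13.3 ± 1.87 (11.1 to 15.5). The bPYX+GFP libraries lay below all 12 others, and the gap to the lowest bPYX+NT3 library, 10.95 against 11.14, was narrow. This ratio was chosen after its values were seen. Over all 69378 pairs of tested miRNAs, with ratios taken on log2 CPM, 2.7% separated bPYX+GFP from naive libraries. The share that separated bPYX+NT3 from bPYX+GFP libraries was 0.47%. The ratio of miR-145-3p to miR-143-5p, which leaves miR-145-5p out, was 4.29 ± 0.54, 4.59 ± 0.62 and 4.67 ± 0.69 in the same order, and the groups overlapped. miR-145-5p counts were 2.95 ± 0.50%, 2.08 ± 0.41% and 2.74 ± 0.66% of miR-143-3p counts, also with overlap.

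The movement of the 4 arms from rat to rat was then examined on log2 CPM centred on each group's mean, which removes the group differences. Naive replicate 2 was the highest naive library for each of the 4 arms. It stood at 1.49 times the naive median for miR-143-3p, 1.79 times for miR-143-5p, 1.69 times for miR-145-5p and 1.32 times for miR-145-3p. This joint height had picked the cluster and is not tested. Among bPYX+NT3 libraries, replicate 3 was the highest for miR-145-5p (1869 CPM), miR-145-3p (575 CPM) and miR-143-5p (120 CPM). Replicate 4 of that group went apart between arms. It was the highest for miR-143-3p (58110.3 CPM) and the lowest for miR-145-5p (917 CPM) and miR-143-5p (77.1 CPM). Replicates 2 and 4 of bPYX+GFP had the 2 lowest levels of miR-145-5p (868 and 858 CPM) and of miR-143-5p (83.4 and 80.2 CPM) in their group, and ranked 2nd and 3rd for miR-143-3p (52788 and 51293.5 CPM).

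**Figure D3:**
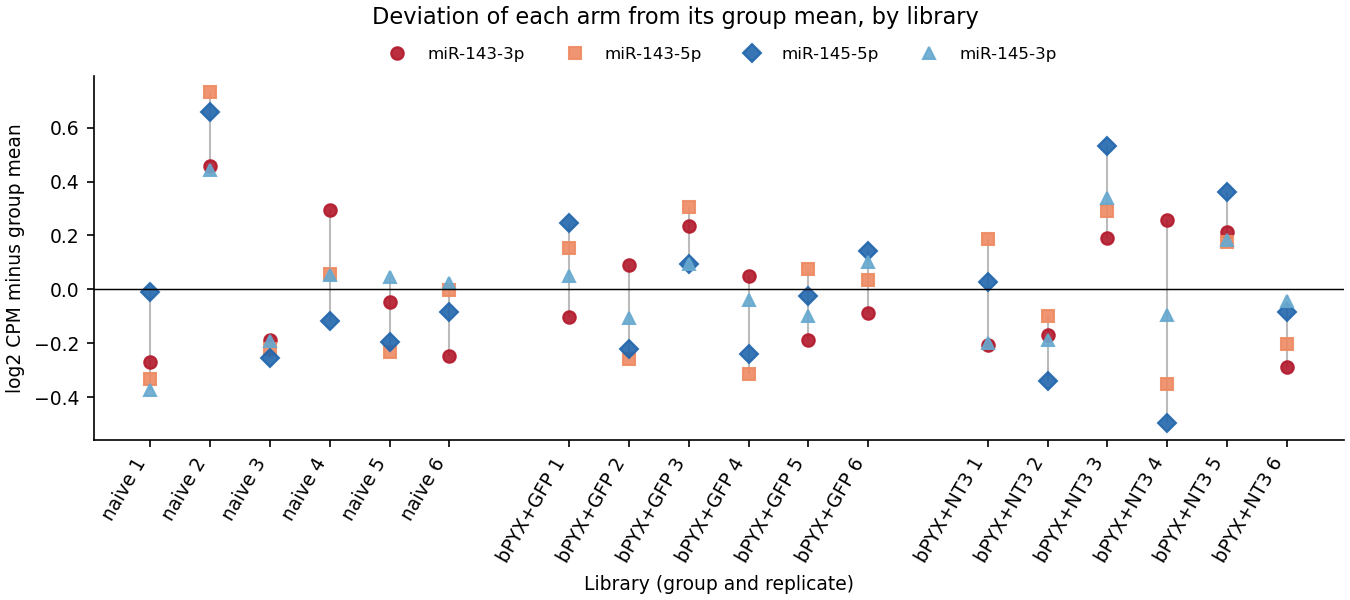
Deviation of each arm from its group mean, in log2 CPM, for each of the 18 libraries. All 4 arms are highest in naive replicate 2 among naive libraries, and in bPYX+NT3 replicate 4 miR-143-3p lies above its group mean while miR-145-5p and miR-143-5p lie below.

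Over the 12 injured libraries, miR-145-5p moved with miR-143-5p and with miR-145-3p and not measurably with miR-143-3p. The joint height that helped pick the cluster lay in a naive library, outside these 12. The change of miR-145-5p between bPYX+NT3 and bPYX+GFP, which also picked it, came from these 12. Centring on group means removes that difference but keeps the high miR-145-5p of bPYX+NT3 replicates 3 and 5 (1869 and 1662 CPM). The p-values below are therefore not independent of that choice. Each p-value comes from a two-sided exact permutation of libraries within each injured group, adjusted over the 6 pairs of arms. miR-143-5p and miR-145-5p, from different hairpins, gave Pearson r = 0.839 (exact permutation p = 0.00118, adjusted 0.00709) and Spearman rho = 0.804 (exact p = 0.00468, adjusted 0.0281). Without the 2 libraries farthest from the median of miR-143-5p, r was 0.760 (exact permutation p = 0.0199, adjusted 0.0722), which did not pass. miR-145-5p and miR-145-3p, from the same hairpin, gave r = 0.818 (exact permutation p = 0.00815, adjusted 0.0244) and rho = 0.720 (exact p = 0.0256, adjusted 0.0768), so the relation passed the threshold by r and not by rho. Without the 2 farthest libraries r was 0.788 (exact permutation p = 0.0241, adjusted 0.0722), which did not pass either. That call by r was also lost when any 1 of bPYX+GFP replicate 2 or bPYX+NT3 replicates 2, 3, 5 or 6 was left out, whereas the call of miR-143-5p with miR-145-5p held with each of the 12 libraries left out singly.

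The other 4 pairs did not pass. miR-143-5p and miR-145-3p gave r = 0.550 (exact permutation p = 0.0879, adjusted 0.176) and rho = 0.392 (exact p = 0.242, adjusted 0.363). This pair passed when bPYX+NT3 replicate 1 was left out, with r = 0.746 and an adjusted exact p of 0.0332. miR-143-3p and miR-145-3p, the most abundant arm and the miR-145 partner strand, gave r = 0.524 (exact permutation p = 0.182, adjusted 0.273) and rho = 0.497 (exact p = 0.177, adjusted 0.353). For the guide strands, miR-143-3p and miR-145-5p, r was 0.129 (exact permutation p = 0.718, adjusted 0.817) and rho was 0.0909 (exact p = 0.807, adjusted 0.928). For both arms of miR-143, r was 0.0784 (exact permutation p = 0.817, adjusted 0.817) and rho was 0.0350 (exact p = 0.928, adjusted 0.928). Without the 2 farthest libraries these 4 values of r were 0.566, 0.714, 0.438 and 0.214, in the order given. A pair that passed and a pair that did not were not tested against each other.

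**Figure D4:**
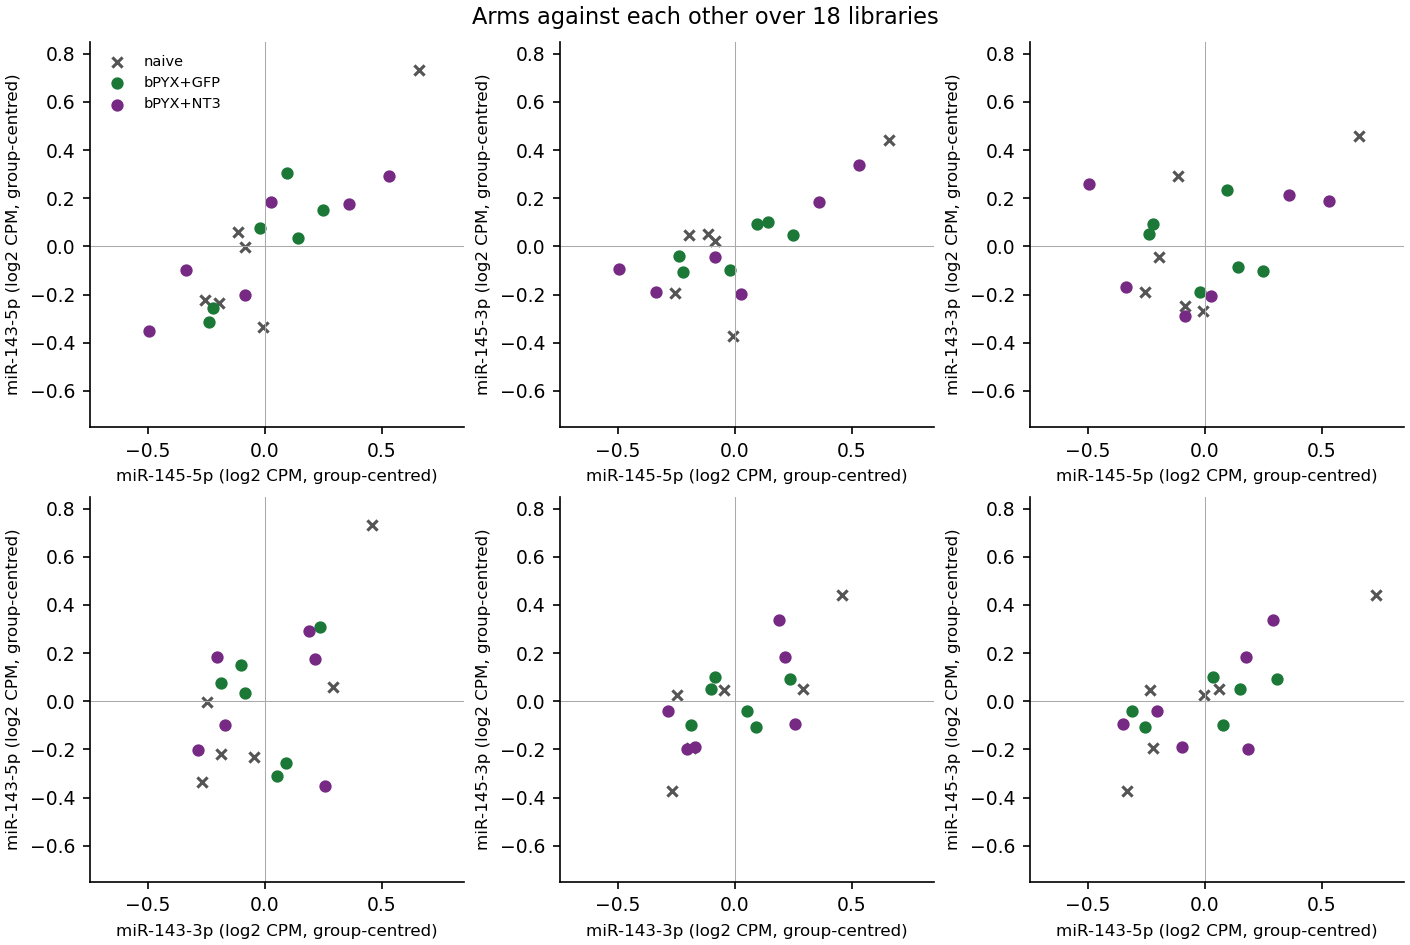
Group-centred log2 CPM of each pair of arms, with 1 point per library and the groups in colours. The pair miR-143-5p and miR-145-5p has the tightest line over the 12 injured libraries (r = 0.839), and naive replicate 2 lies at the upper right of each panel.

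The same pairs led within each injured group of 6. These groups are parts of the 12 injured libraries above, so their values and p-values are no separate support and carry the same dependence. miR-143-5p and miR-145-5p gave r = 0.846 in bPYX+GFP (exact permutation p = 0.0444) and 0.890 in bPYX+NT3 libraries (exact permutation p = 0.0236). miR-145-5p and miR-145-3p gave 0.761 (exact permutation p = 0.113) and 0.832 (exact permutation p = 0.0444). None of the 12 values within groups passed after adjustment over the 12, the lowest adjusted exact p being 0.178. In the naive libraries, given without a test, r lay between 0.680 and 0.905 for the 6 pairs. Without naive replicate 2 the values spread from -0.321, for miR-145-5p with miR-145-3p, to 0.750, for miR-143-5p with miR-145-3p. miR-143-5p with miR-145-5p went from 0.895 to 0.0270. The 5 libraries left include naive replicate 1, an outlier by the study's own account. Of all naive libraries it was the lowest for miR-143-5p (82.4 CPM) and miR-145-3p (342 CPM), and the 2nd highest for miR-145-5p (1403 CPM). No r was calculated without both replicates, so the part of each library in these values was not tested.

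The arms of miR-145 were then set among all 114 hairpins with both arms tested. Over the 12 injured libraries r between its arms, 0.818, ranked 4th, and the median over hairpins was 0.117. Over the 18 libraries it was 0.751 and ranked 5th, with a median of 0.183, but these include naive replicate 2, which picked the cluster. Within the other 5 naive libraries r was -0.321. Those 5 include naive replicate 1, the study's outlier, with the lowest miR-145-3p (342 CPM) and the 2nd highest miR-145-5p (1403 CPM) of the naive libraries. The arms of miR-143 ranked 24th over 18 libraries (r = 0.485) and 64th over the injured libraries (r = 0.0784). These ranks are a description, and hairpins share the libraries and their depth. Hairpins were not matched for the counts of their scarcer arm, so the ranks do not compare hairpins of like counts.

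**Figure D5:**
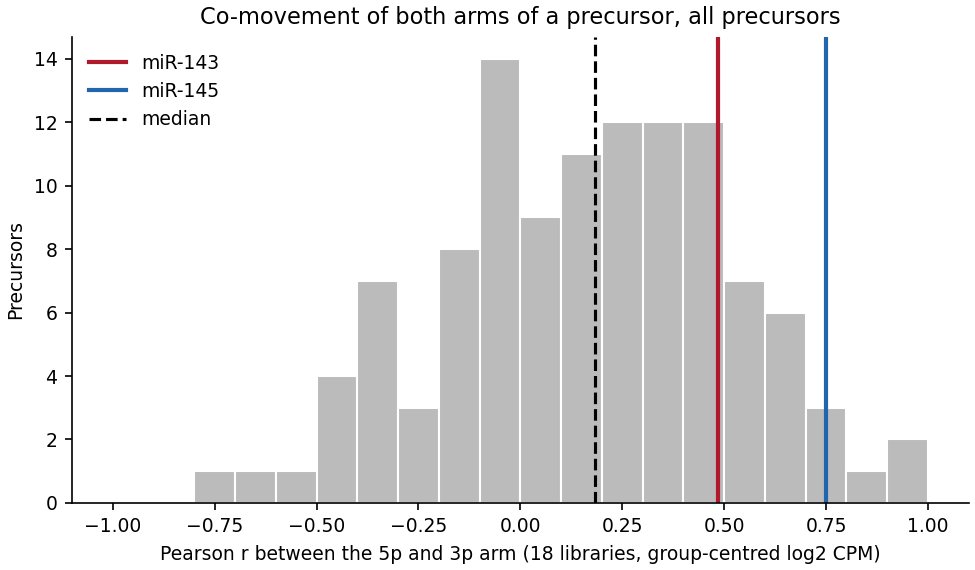
Number of hairpins by Pearson r between their 5p and 3p arms over 18 libraries (group-centred log2 CPM), for all 114 hairpins with both arms tested. miR-145 (0.751) lies in the upper tail, miR-143 (0.485) nearer the centre, and the dashed line marks the median of 0.183, with naive replicate 2, which picked the cluster, among the libraries.

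Among the 372 other tested miRNAs, the one most like miR-145-5p over the 18 libraries was miR-143-5p (r = 0.849), followed by miR-145-3p (0.751), and miR-143-3p came 68th (0.368). Over the 12 injured libraries the nearest was again miR-143-5p (0.839), with miR-145-3p 2nd (0.818). Outside the cluster the nearest were miR-877 (r = 0.724, mean 16.0 CPM), miR-872-3p (0.709, 66.7 CPM), miR-181b-5p (0.704, 16.9 CPM), miR-195-5p (0.693, 429 CPM) and miR-16-5p (0.649, 1393 CPM). Over the 12 injured libraries these ranked 19th, 11th, 17th, 7th and 9th. miR-195-5p and miR-16-5p belong to a family with a shared seed. For miR-143-5p over the 12 injured libraries, miR-145-5p came 1st (0.839). miR-206-3p, a striated muscle miRNA outside the cluster, came 2nd with almost the same r (0.837), and miR-145-3p came 33rd (0.550). The r of miR-143-5p with miR-145-5p was thus not particular to the cluster. For miR-143-3p the nearest over the 18 libraries, which include naive replicate 2, was miR-145-3p (r = 0.688). Over the 12 injured libraries miR-145-3p came 20th (0.524) and miR-148b-5p came 1st (0.832). Outside the cluster the nearest over 18 libraries were miR-148b-5p (0.679, 26.2 CPM), miR-28-5p (0.627, 194 CPM), miR-199a-5p (0.617, 1506 CPM), miR-872-5p (0.608, 586 CPM) and miR-365-5p (0.607, 3.67 CPM). The neighbours named for the guide strands were different mature miRNAs, but miR-872-3p and miR-872-5p are arms of a single hairpin. These correlations are a description over 18 shared libraries, with no test.

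The spread of the arms between rats of a group was near that of other miRNAs. The within-group SD of log2 CPM was 0.24 for miR-143-3p, 0.30 for miR-143-5p, 0.32 for miR-145-5p and 0.21 for miR-145-3p, with a median of 0.22 over all 373. miR-145-5p had a wider spread than 74.3% of them.

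Other miRNAs studied in vascular smooth muscle, from a list of 7, were set beside the cluster. Of these, 5 were tested. miR-24-3p was listed at 0 to 1 counts and miR-26a-5p at 0 to 10 counts per library, below the filter, and for the reason given above these low counts are not read as scarcity. By edgeR's quasi-likelihood test 0 of the 5 were called at an adjusted p under 0.05 in bPYX+GFP against naive (beside 2.41% of all tested miRNAs) and in the other 2 comparisons (beside 0%). DESeq2 called 1, miR-490-3p, in bPYX+GFP against naive rats (beside 6.17% of all tested miRNAs) and 0 in bPYX+NT3 against bPYX+GFP (beside 0%) and against naive rats (beside 0.268%). The likelihood ratio test called 0 in the 3 comparisons, beside 3.22%, 0% and 0.268%. At an unadjusted p under 0.05, miR-195-5p and miR-222-3p were called as higher and miR-490-3p as lower in bPYX+GFP against naive rats (log2 fold change of miR-490-3p -0.29 ± 0.09), which is 3 of 5 beside 21.2% of all tested miRNAs. miR-490-3p was called as higher in bPYX+NT3 against bPYX+GFP (0.24 ± 0.10; 1 of 5 beside 8.58%) and miR-195-5p as higher in bPYX+NT3 against naive rats (1 of 5 beside 13.7%). The most abundant member was miR-21-5p, at 20456.5 ± 5034 CPM (SD, n = 18).

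Marker miRNAs of the cell types in or near the ganglion were summed per library to see what moved with the cluster. miR-126a-3p, the endothelial miRNA, stood at 24445.6 ± 2739 CPM, and its partner miR-126a-5p was listed at 0. It ranged over 21026 to 29100.2 CPM in naive libraries, 20897 to 26671 in bPYX+GFP libraries and 19521 to 28526 in bPYX+NT3 libraries. The fibroblast miRNAs (3 of 4 tested, miR-214-5p at 0, led by miR-199a-5p at 1506 ± 197 CPM) ranged over 1627 to 2459, 1387 to 1870.2 and 1544 to 1851 CPM in the same order. Naive replicate 2 was the highest naive library for the endothelial miRNA and for the sums of the fibroblast and vascular smooth muscle lists. Most of the vascular smooth muscle sum was 1 member, miR-21-5p. Its mean was 20456.5 CPM, beside median sums of 23069, 20146 and 20417 CPM in naive, bPYX+GFP and bPYX+NT3 libraries. bPYX+NT3 replicate 3 was the lowest of its group for the endothelial miRNA and the highest for the vascular list (33263 CPM). Replicate 5, the 2nd highest of that group for miR-145-5p, was the lowest for the vascular list (16912 CPM). The part of these cell types in the levels of the 4 arms was not tested.

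The striated muscle list, with 3 of 7 tested and led by miR-499-5p (736 ± 101 CPM), ranged over 870.2 to 1125 CPM in naive libraries, 797 to 1117 in bPYX+GFP libraries and 732 to 990.4 in bPYX+NT3 libraries, and naive replicate 2 ranked 5th of 6. Red blood cell miRNAs (3 of the 4 listed were in the table, led by miR-451-5p at 419 ± 209 CPM) ranged over 125 to 566, 205 to 691 and 264 to 1098 CPM. White blood cell miRNAs (5 of 5, led by miR-150-5p at 1028 ± 360 CPM) ranged over 837 to 2381, 1198 to 2527 and 965 to 1697 CPM. Sensory neuron miRNAs (2 of 3) ranged over 23640.2 to 31007, 28964 to 33099 and 25916 to 32954 CPM. Neuronal miRNAs (3 of 5, led by miR-128-3p at 8142 ± 1205 CPM) ranged over 8469 to 11369.7, 8951 to 10079 and 7241 to 10908 CPM, and naive replicate 2 was the lowest naive library. Glial miRNAs (2 of 4, led by miR-204-5p at 8451 ± 1536 CPM) ranged over 7071 to 12155, 7505 to 9798 and 5429 to 10773 CPM. Among naive libraries, replicate 2 ranked 2nd of 6 for both the sensory neuron and the glial sums (29040.5 and 9080 CPM). It ranked 3rd for the white and 4th for the red blood cell sums. Of the 22 tested members of these 8 cell type lists, edgeR's quasi-likelihood test, the likelihood ratio test and DESeq2 each called 0 at an adjusted p under 0.05 in the 3 comparisons. The shares of all tested miRNAs were 2.41%, 3.22% and 6.17% by these tools in bPYX+GFP against naive, 0% in bPYX+NT3 against bPYX+GFP and at most 0.268% in bPYX+NT3 against naive rats. At an unadjusted p under 0.05 the quasi-likelihood test called 2 in bPYX+GFP against naive, 1 in bPYX+NT3 against bPYX+GFP and 4 in bPYX+NT3 against naive rats, beside 21.2%, 8.58% and 13.7% of all tested miRNAs.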

How the data were processed

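Total RNA from C6 to C8 dorsal root ganglia of 18 rats, 6 per group, was made into small RNA libraries and sequenced. The authors mapped reads with Bowtie2 to Rnor_5.0 and deposited raw counts of mature miRNAs from HTSeq. The submitters' processing notes also name bcl2fastq 1.8.4, and the other versions were not given in the sources used here. The 5 rows that name no miRNA held 65.1 ± 1.68% of all entries (SD, n = 18) and were left out. The deposited counts carried no molecular identifiers.

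Counts were tested with edgeR 4.0.16 in R 4.3.3 (quasi-likelihood F test, TMM, 12 libraries per comparison), after a filter of more than 10 counts in at least 6 libraries, with Benjamini-Hochberg adjustment over 373 miRNAs. The SE was derived from the F statistic. Correlations used log2 CPM with a prior count of 2, centred within groups, and exact permutations. The scripts were tested on simulated data. Alternatives were edgeR's likelihood ratio test, DESeq2 1.42.0, other scalings and filters, a fit of all groups, a replicate block, and leaving out each library. Naive replicate 1, an outlier by the study's own account, stayed in the fits except in the alternative that drops it.

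The members and lists were chosen with earlier results of these data known. Named miRNAs were the 4 arms and the 5 others most correlated with miR-145-5p and with miR-143-3p. The most abundant member of each marker list was named too, with any member called at an adjusted p. Others are named where they make up a small count, and miR-206-3p was named after its values were seen. The lists were striated muscle, endothelium, fibroblast, red and white blood cells, sensory neurons, neurons, glia and vascular smooth muscle phenotype. Comparisons over the 114 hairpins with both arms tested and over all pairs of miRNAs were added after the data were seen. Replicate libraries differed by more than sampling noise (lowest chi-square per degree of freedom 37.3).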

Additional observations from a re-analysis of the deposited data

Results flagged for a closer look

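In groups of 6, a library was marked when its gap to the nearest other library exceeded Dixon's 95% limit for the group's range. Of 27 groups over 9 measures of the 4 arms, 3 had such a library. Chance marks about 1 in 20 groups, but 2 of the 3 are values of naive replicate 2, so the number is not read against chance. miR-145-5p stood at 2228 CPM in naive replicate 2, and the next naive library was at 1403 CPM. miR-143-5p stood at 172 CPM in the same library, and the next was at 108 CPM. This library's height in the 4 arms had picked the cluster, so both values are a description. The ratio of miR-143-3p to miR-143-5p was 754 in bPYX+NT3 replicate 4, and the next highest of that group was 507.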

How the results depend on the processing

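Depth limited miR-143-5p most, at 303 to 777 counts per library. The number of arms called at an adjusted p in bPYX+GFP against naive rats went from 0 to 1 with the likelihood ratio test and with DESeq2, and was 0 to 1 over single left-out libraries. The unadjusted count in bPYX+NT3 against bPYX+GFP was 0 to 1 over left-out libraries, beside 24 to 54 of all 373 tested miRNAs. In bPYX+NT3 against naive rats, miR-143-3p was near 0 and changed sign with RLE scaling (0.011), library size only (0.057), no filter (0.011), a filter at 100 counts (0.029), DESeq2 (0.011) and the replicate block (0.0033). Over left-out libraries the ranges there were -0.061 to 0.10 for miR-143-3p, -0.17 to 0.079 for miR-143-5p, -0.24 to 0.050 for miR-145-5p and -0.043 to 0.13 for miR-145-3p. Over the 12 injured libraries, miR-143-5p with miR-145-3p reached 0.722 with library size only. Over all 18 libraries that pair gave 0.750 and miR-143-3p with miR-145-3p gave 0.688. These include naive replicate 2, whose height picked the cluster, and are a description. Spearman's rho for miR-145-5p with miR-145-3p was 0.720 and did not pass. Over left-out libraries r ran from -0.111 to 0.373 for both miR-143 arms, from -0.078 to 0.491 for both guide strands, from 0.443 to 0.691 for miR-143-3p with miR-145-3p, from 0.782 to 0.884 for miR-143-5p with miR-145-5p, from 0.405 to 0.746 for miR-143-5p with miR-145-3p and from 0.702 to 0.910 for both miR-145 arms. Of the values described without a test, miR-145-5p in bPYX+GFP against naive rats kept its sign over left-out libraries, at -0.55 to -0.34, and in bPYX+NT3 against bPYX+GFP at 0.25 to 0.49, while the other 3 arms changed sign in both. They ran from -0.15 to 0.12 in the first and from -0.098 to 0.077 in the second. Counts over all miRNAs moved from 9 to 23 with DESeq2 at an adjusted p in bPYX+GFP against naive rats (3 to 20 over left-out libraries), and from 32 to 54 without a filter at an unadjusted p in bPYX+NT3 against bPYX+GFP. Except where the setting itself leaves out libraries or adds miRNAs, the cause was not tested.

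Replicate numbers did not pair the libraries. Same-numbered libraries of different groups correlated between -0.380 and 0.367, 6 of 18 pairs passed 0.1, and 4 of 18 libraries correlated best with their own number. With the replicate block, miR-145-5p gave -0.47, 0.36 and -0.12 in bPYX+GFP against naive, bPYX+NT3 against bPYX+GFP and bPYX+NT3 against naive rats. The block called 7, 0 and 0 of all miRNAs at an adjusted p, and changed no call of the 4 arms.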

Other observations

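miR-193a-3p, chosen after its values were seen, was high in the bPYX+NT3 libraries with the highest miR-145-5p. It stood at 25.0 CPM in replicate 3 (118 counts) and 18.0 CPM in replicate 5 (94 counts), against 1.75 to 5.17 CPM in the other 16 libraries. The summed glial miRNAs were lowest of the bPYX+NT3 group in the same libraries, at 5429 CPM in replicate 3 and 6163 CPM in replicate 5. Replicate 3 was also the lowest of that group for the sensory neuron (25916 CPM) and neuronal sums (7241 CPM), and replicate 5 was not (31020 and 8994 CPM). Replicate 4, the lowest for miR-145-5p, was the highest for the glial (10773 CPM) and neuronal sums (10908 CPM) and for miR-126a-3p (28526 CPM). Each value rests on a single rat, and no test was run.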
